A study of Homo sapiens with 9 samples.

Results

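The 26S proteasome is the large protease that degrades ubiquitin-tagged proteins, and 31 genes of its constitutive subunits were followed here across HEK293 cells that carried an empty vector or 1 of 2 isoforms of the RNA editing enzyme ADARB1. The genes were listed by name as subunits of the 20S and 19S particles, and the list was chosen with earlier results of these data known. Of the 31 genes, 30 were matched among the 54562 genes listed and all 30 passed the filter on low values (a mean FPKM of 1 or more), as did 13801 genes in all. PSMB3, a subunit of the beta ring, had no matched identifier and was not analysed. FPKM is the number of fragments scaled to transcript length and to library size, so levels are given per length and can be set beside each other between genes.

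HEK293 is a line of human embryonic kidney cells transformed with adenovirus DNA. EV cells received the empty vector, Short cells the ADARB1 isoform that skips the *Alu* exon, and Long cells the isoform that includes it, all by transient lipid transfection and collected 48 hours later. Each group held 3 libraries of polyadenylated RNA. The study repeated the transfections in 3 cell passages, and the replicate numbers 1 to 3 were taken to stand for these passages. The labels give the numbers and name no passage. ADARB1 itself was at 7.66 to 8.61 FPKM in EV, 1889 to 4145 in Short and 1695 to 3449 in Long. The sum of FPKM over all genes was 517170 to 541348 in EV, 533531 to 589535 in Short and 544461 to 567585 in Long. Every Long library thus summed above every EV library. No counts were used, so the depth is unknown. The HEK293 markers VIM and NEFM were at means of 151 and 60.8 FPKM and PAX2 at 2.47, while the leukocyte genes PTPRC and CD3E, the hepatocyte gene ALB and the squamous gene KRT5 had means of at most 0.147 FPKM. COL1A1, a fibroblast marker, had a mean of 11.2 FPKM.

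The proteasome is built from a barrel and a cap. The 20S barrel is a stack of rings, the outer ones made of alpha subunits that gate the entrance and the inner ones of beta subunits, of which PSMB5, PSMB6 and PSMB7 carry the chymotrypsin-like, caspase-like and trypsin-like activities. The 19S cap has a base, with a ring of ATPases that unfolds the substrate, and a lid, whose subunit PSMD14 removes the ubiquitin chain. Complete particles need every subunit in fixed proportion. In human cells the factor NFE2L1 raises the subunit genes together when proteasome activity falls, through antioxidant response elements in their promoters.

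In EV cells the subunit transcripts lay between a mean of 21.8 FPKM for PSMC1 and 215 FPKM for PSMB1, a 9.83-fold range, whereas the particle holds the proteins in fixed proportion. The level of PSMC1 is uncertain for reasons given below, and the next lowest gene was PSMD12 at 28.9 FPKM. The lowest member lay above 69.5% and the highest above 97.8% of the 13815 genes that reached 1 FPKM in EV, whose median was 11.6 FPKM. The median over the 30 members was 99.2 FPKM, and 14 of the 30 reached an average of 100 FPKM in EV. The coefficient of variation between the 3 EV libraries had a median of 6.21% and a range of 0.817% to 21.9%. In the order of EV means, 10 of the 29 neighbouring pairs stood in that order within each of the 3 EV libraries and 7 within each of the 9 libraries, and in 6 pairs the ranges of the EV libraries did not overlap.

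The alpha ring genes were close to each other. Their EV means were between 84.9 FPKM for PSMA5 and 181 FPKM for PSMA1, with a median of 102. PSMA1, PSMA4 and PSMA7, at EV means of 181 ± 18.5, 177 ± 23.4 and 158 ± 2.72 FPKM (SD, n = 3), were the highest of the ring. PSMA2, PSMA6 and PSMA5, at 102 ± 4.72, 99.3 ± 6.07 and 84.9 ± 5.86 FPKM, formed a lower set with PSMA3, which was at 83.4, 88.0 and 114 FPKM in EV libraries 1 to 3. The exons of PSMA1, PSMA2 and PSMA6 overlap on the same strand those of annotated coding genes listed at means between 0.390 and 10.4 FPKM, and their fragments could be assigned to either gene.

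The beta ring held both the highest subunit, PSMB1, at 215 ± 5.01 FPKM, and 1 of the lower ones, PSMB2, at 59.3 ± 4.34 FPKM. The catalytic genes PSMB7, PSMB6 and PSMB5 had EV means of 130 ± 3.40, 122 ± 4.20 and 119 ± 4.81 FPKM, so the 3 active-site subunits lay within a narrow band. In EV libraries 1 to 3, PSMB5 was at 115, 118 and 124 FPKM, PSMB6 at 120, 120 and 127 FPKM, and PSMB7 at 126, 133 and 130 FPKM. The ranges overlapped, but within every EV library PSMB5 was below PSMB6 and PSMB6 below PSMB7, and PSMB5 was below PSMB6 in the Short and Long libraries too. PSMB4 had an EV mean of 180 ± 2.27 FPKM.

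The ATPase ring was uneven. Its 6 genes encode related ATPases, each present once in the ring. Their EV means descended from 128 ± 1.91 FPKM for PSMC3 through 98.5 ± 8.84 for PSMC5, 89.5 ± 6.84 for PSMC4, 65.1 ± 9.52 for PSMC2 and 49.8 ± 6.87 for PSMC6 to 21.8 ± 1.66 for PSMC1. PSMC1 was at 20.9, 20.9 and 23.8 FPKM in EV, 24.6, 21.9 and 24.2 in Short, and 23.7, 23.8 and 28.2 in Long (libraries 1 to 3). It was the lowest of the members in EV.

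A processed pseudogene of PSMC1 was listed above the gene itself. A processed pseudogene is a copy of a spliced mRNA inserted elsewhere in the genome, and its reads are hard to tell from those of the parent. PSMC1P1 (GRCh37 chr3:68684856-68686175), 1320 bases long, was at 56.4, 59.4 and 69.6 FPKM in EV, 69.5, 61.4 and 65.0 in Short, and 66.9, 67.6 and 67.4 in Long. It was chosen after its values were seen. In each library it was between 2.39 and 2.93 times the value of PSMC1. The sum of the 2 values was 83.6 ± 8.55 FPKM in EV. It is not a level of PSMC1, because FPKM is scaled to each gene's own length and the longest PSMC1 transcript has 4390 bases. Over the whole list, 14 members had a total of 33 annotated pseudogenes, nearly all processed, 13 of them of PSMC1, and 31 were listed. Only PSMC1P1, PSMA6P1 (2.49 FPKM) and PSMA6P2 (1.24 FPKM) reached a mean of 1 FPKM. On the opposite strand, 4667 of the 6129 exon bases of PSMC1 overlap NRDE2, which had a mean of 11.1 FPKM. How the authors' counting shared fragments between these copies and whether it used the strand were not given in the sources used here, so the level of PSMC1 is uncertain.

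Of the remaining base subunits, the scaffold PSMD2 and the ubiquitin receptor PSMD4 were at EV means of 126 ± 3.59 and 119 ± 5.29 FPKM. PSMD1, the other large scaffold, was at 48.7, 51.1 and 61.8 FPKM in EV. PSMD1 and PSMD2 encode related proteins, yet PSMD1 stayed between 47.0 and 64.6 FPKM in all 9 libraries and PSMD2 between 123 and 149 FPKM. The ranges did not overlap.

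The lid genes spread from PSMD8, at 158 ± 1.29 FPKM, to PSMD12, at 28.9 ± 6.34 FPKM. PSMD13 and PSMD3 had EV means of 102 ± 1.39 and 99.2 ± 2.96 FPKM. PSMD7, the partner of PSMD14 in the lid, was at 84.5 ± 4.99 FPKM, PSMD6 at 74.2 ± 6.72 and PSMD11 at 68.3 ± 6.37 FPKM. The deubiquitinase PSMD14 was among the lowest members, at 43.9, 45.4 and 49.5 FPKM in EV, 48.4, 37.9 and 48.3 in Short, and 45.1, 41.6 and 51.0 in Long. Its groups overlapped.

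The barrel genes were higher than the cap genes by a similar ratio in all libraries. The median EV level was 122 FPKM over the 13 matched 20S genes and 84.5 FPKM over the 17 genes of the 19S cap. Within each library the 20S median was 1.42 to 1.53 times the 19S median, with means of 1.45 ± 0.0468 in EV, 1.49 ± 0.0534 in Short and 1.46 ± 0.0207 in Long (SD, n = 3). The 3 groups overlapped. Leaving out members that share exons on the same strand or have a processed pseudogene raised the mean log2 ratio from 0.55 to 0.80, so its size depends on which genes are counted.

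The order of the subunits was much the same in every library. Spearman's rho between the levels of the 30 members in 2 libraries was 0.952 to 0.996 over the 36 library pairs, which share gene lengths and composition. The SD of the members' log2 levels was 0.71 to 0.85 per library, beside 0.54 to 0.76 for the 8 genes of the CCT chaperonin and 0.69 to 1.03 for the 9 genes of the COP9 signalosome, both also complexes with fixed composition. The highest EV mean was 3.28 times the lowest in the CCT chaperonin and 3.92 times in the COP9 signalosome, against 3.62 times within the 20S and 7.24 times within the 19S genes. The 19S value has PSMC1, of uncertain level, as its lowest gene. Together the 30 members took 0.556% to 0.640% of the summed FPKM. The means were 0.594 ± 0.0423% in EV, 0.602 ± 0.0315% in Short and 0.604 ± 0.0274% in Long (SD, n = 3).

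Subunit levels went with transcript composition. Over the 30 members, Spearman's rho of the mean level was 0.54 with the GC content of the longest annotated transcript and -0.58 with its length, beside -0.03 and -0.05 over the 13398 tested genes with an annotated transcript. The points share libraries and the length correction of FPKM. PSMD14, at 32.0% GC and 4890 bases, and PSMD12, at 37.5% and 4356 bases, were at the low end, while PSMA7, at 55.5% and 1023 bases, and PSMB4, at 48.2% and 2067 bases, were at the high end. Other members went the other way. PSMB1, the highest, had 40.7% GC, and PSMA4, at an EV mean of 177 FPKM, had 41.9% and 4378 bases. PSMC1, the lowest, had 48.6% GC.

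The next comparison was of Short with EV cells, which asks how the skipping isoform changed the transcriptome. None of the 30 members passed an adjusted p of 0.05 in limma, and 0.0362% of all genes tested did. At an unadjusted p under 0.05, 14 of 30 members were higher and 0 lower, where 15.2% of all genes tested were higher and 6.88% lower. The median fold change, as a log2 difference of FPKM + 1, was 0.10 over the members and 0.04 over all genes tested, and 26 of 30 members had a positive value, as did 61.0% of all genes tested. When FPKM was rescaled to an equal sum per library (TPM), 20 of 30 were positive, and 3 were higher and 2 lower at that unadjusted p, where 4.37% of all genes were higher and 14.7% lower. This scaling moved the median of the members to 0.02 and that of all genes to -0.03, so the gap between them stayed about the same. In bulk libraries, fewer cells of a type and less RNA per cell cannot be told apart.

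The smallest p-values in Short belonged to the lid subunit PSMD3, the catalytic subunit PSMB6 and the lid subunit PSMD8. PSMD3 was at 99.2, 96.2 and 102 FPKM in EV, against 121, 119 and 119 FPKM in Short, so every Short library lay above every EV library. Its log2 fold change was 0.27 ± 0.05 (SE, n = 3), with a limma adjusted p of 0.110. PSMB6 reached 138, 138 and 143 FPKM in Short, above its EV values, with a log2 fold change of 0.19 ± 0.04 and a limma adjusted p of 0.110. PSMD8, at 160, 157 and 158 FPKM in EV and 191, 182 and 167 FPKM in Short, differed by 0.18 ± 0.05 on the log2 scale (limma adjusted p of 0.110).

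Among the other subunits reported throughout, PSMB7 differed by 0.14 ± 0.04 (limma adjusted p of 0.124) and PSMB5 by 0.15 ± 0.06 (limma adjusted p of 0.168) on the log2 scale. Their Short libraries lay above all EV libraries, at 134, 132 and 128 FPKM for PSMB5 and 141, 147 and 141 FPKM for PSMB7. PSMD14 differed by -0.05 ± 0.07, with a 95% interval of -0.21 to 0.11. All 3 Short libraries were above all 3 EV libraries in 15 of 30 members, where 10.9% of all genes tested showed this, and they were below in 0 of 30, where 2.11% of all genes did.

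In Long cells 6 of the 30 subunit genes passed the test against EV, 5 of them higher. The 5 were the catalytic subunit PSMB6, the ATPases PSMC4 and PSMC5, the base scaffold PSMD2 and the lid subunit PSMD3, which rose by 12.1% to 16.2% on the log2(FPKM + 1) scale. The ATPase PSMC6 was lower, at 0.82 times the EV value. Among all genes tested 8.32% passed, 1.99% higher and 6.33% lower, so 5 of 30 higher and 1 of 30 lower stand beside these shares. At an unadjusted p under 0.05, 15 of 30 members were higher and 1 lower, where 12.4% of all genes tested were higher and 12% lower. The median log2 fold change was 0.12 over the members and 0.04 over all genes tested. All 3 Long libraries were above all 3 EV libraries in 15 of 30 members (10.5% of all genes tested) and below in 0 of 30 (3.14% of all genes).

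**Figure D1:**
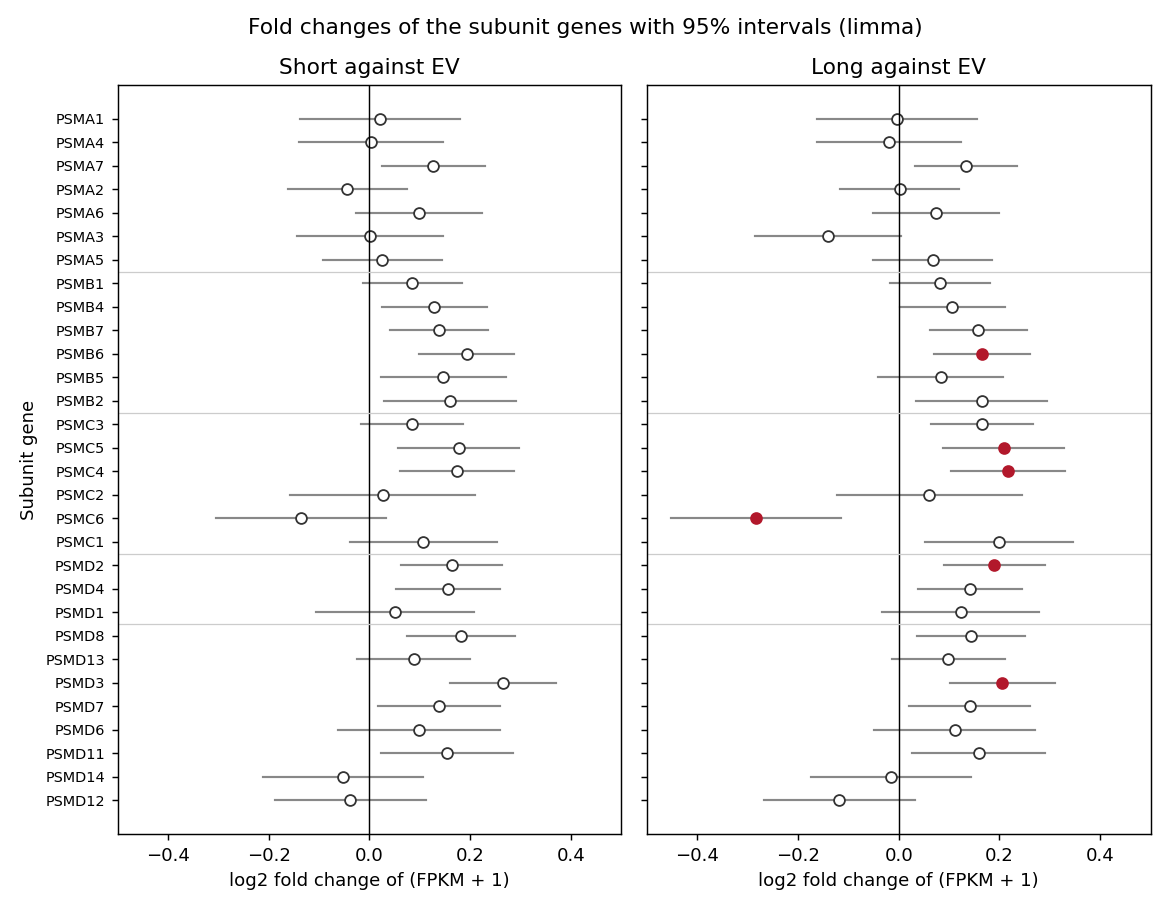
Log2 fold change of (FPKM + 1) of each subunit gene in Short and in Long against EV, with 95% intervals from limma; filled red points have an adjusted p under 0.05, and grey lines part the sub-complexes. No point is filled for Short; in Long, PSMB6, PSMC4, PSMC5, PSMD2 and PSMD3 are filled at 0.16 to 0.22 and PSMC6 at -0.28.

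PSMC4 (GRCh37 chr19:40477072-40487671, plus strand) was at 87.4, 83.9 and 97.1 FPKM in EV, 100, 101 and 102 FPKM in Short and 100, 102 and 110 FPKM in Long. It is an ATPase of the base ring. Its log2 fold change in Long was 0.22 ± 0.05 (SE, n = 3; limma adjusted p of 0.0281), and every Long library lay above every EV library.

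PSMC5 (chr17:61904512-61909386, plus strand), a further ATPase of the ring, was at 92.1, 94.7 and 109 FPKM in EV and at 111, 115 and 114 FPKM in Long. EV replicate 3 stood near the Long libraries and the other 2 EV libraries well under them. The log2 fold change was 0.21 ± 0.05 (limma adjusted p of 0.0414). On the opposite strand 655 of its 4279 exon bases overlap FTSJ3, which had a mean of 29.7 FPKM.

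PSMD3 (chr17:38137060-38154212, plus strand), a structural subunit of the lid, was at 110, 115 and 118 FPKM in Long, above the EV values given before. Its log2 fold change was 0.21 ± 0.05 (limma adjusted p of 0.0260), the smallest p of the members in Long.

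PSMD2 (chr3:184016986-184026838, plus strand) was at 130, 125 and 123 FPKM in EV, 144, 143 and 136 FPKM in Short and 141, 149 and 141 FPKM in Long. The base scaffold PSMD2 binds ubiquitin-like domains of shuttle factors. The log2 fold change in Long was 0.19 ± 0.05 (limma adjusted p of 0.0299), with the groups apart.

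PSMB6 (chr17:4699439-4701797, plus strand) was at 132, 136 and 143 FPKM in Long, and each Long library was above its EV partner by 0.14 to 0.18 on the log2 scale. Its log2 fold change was 0.16 ± 0.04 (limma adjusted p of 0.0414). The other catalytic genes came short of the threshold. PSMB7 was at 142, 153 and 140 FPKM in Long and differed by 0.16 ± 0.04 (limma adjusted p of 0.0513). PSMB5 was at 117, 135 and 126 FPKM in Long, overlapped EV, and differed by 0.08 ± 0.06 (limma adjusted p of 0.390).

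PSMC6 (chr14:53173896-53195308, plus strand) was at 46.2, 45.5 and 57.7 FPKM in EV, 41.9, 38.4 and 56.4 FPKM in Short and 34.3, 34.3 and 56.3 FPKM in Long. The Long libraries of replicates 1 and 2 were lower than their EV partners by 0.42 and 0.40 on the log2 scale, and that of replicate 3 by 0.03, so the groups overlapped and replicate 3 stood apart. The log2 fold change was -0.28 ± 0.08 (limma adjusted p of 0.0465). The member just outside the threshold on the higher side besides PSMB7 was the ATPase PSMC3 (limma adjusted p of 0.0514), at 141, 148 and 141 FPKM in Long. PSMD14 differed by -0.01 ± 0.07, with a 95% interval of -0.17 to 0.14.

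By sub-complex, 4 of 17 cap genes and 1 of 13 barrel genes were called higher in Long, as were 1.99% of all genes tested. In the cap 1 gene was called lower and in the barrel 0, where 6.33% of all genes tested were lower. The median log2 fold change in Long was 0.00 over the alpha ring, 0.13 over the beta ring, 0.18 over the ATPases, 0.14 over the other base subunits and 0.13 over the lid, and in Short, with the same EV libraries, it was 0.02, 0.14, 0.10, 0.16 and 0.12. In the alpha ring only PSMA7 was higher at an unadjusted p under 0.05 in limma (log2 fold change 0.13 ± 0.05 in Long, adjusted p of 0.105), and its Long values of 177, 179 and 164 FPKM lay above its EV values of 155, 160 and 158 FPKM. A difference between sub-complexes was not tested.

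These calls did not hold in several other fits, in which calls over all genes also dropped from 275 higher and 873 lower. The fit without the replicate block, the fit on Long and EV alone, the fit without an intensity trend, the fit without a filter on low values, the fits that left out replicate 1 or replicate 2 and the correction for GC content each left 0 of 30 members past the threshold in limma, where without the block the adjusted p was 0.637 for the 5 higher members and 0.716 for PSMC6. Over all genes these fits called 1 higher and 1 lower without the block, 87 and 665 on Long and EV alone, 45 and 601 without a trend, 1 and 0 of 27356 without a filter, 1 and 1 without replicate 1, 12 and 88 without replicate 2 and 70 and 94 with the GC correction. TPM left only PSMC6.

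The comparison of Long with Short asks whether the inclusion isoform acts otherwise than the skipping one. None of the members passed, and 0.00725% of all genes tested did. At an unadjusted p under 0.05 in limma 0 of 30 members were higher and 0 lower, where 1.61% of all genes tested were higher and 5.93% lower. The smallest p-values belonged to the alpha subunit PSMA3, at a log2 difference of -0.14 ± 0.07 (limma adjusted p of 0.663), PSMC6, at -0.15 ± 0.08 (limma adjusted p of 0.719), and PSMC3, at 0.08 ± 0.05 (limma adjusted p of 0.762). The Short libraries had 90.5, 80.3 and 115 FPKM of PSMA3 and the Long libraries 77.8, 70.3 and 113 FPKM, so the groups overlapped. The 95% intervals of the difference were -0.12 to 0.07 for PSMB6, -0.08 to 0.12 for PSMB7, -0.19 to 0.06 for PSMB5 and -0.12 to 0.20 for PSMD14, which bound how far these members could differ between the isoforms.

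Replicate 3 stood apart in some subunits whatever the group. In 6 of the 30 members, PSMA3, PSMA4, PSMC2, PSMC6, PSMD1 and PSMD12, the 3 libraries of replicate 3 were above all other 6 libraries, where 13.1% of all genes tested showed this. PSMD12, a lid subunit, was at 36.2, 33.2 and 33.4 FPKM in replicate 3 of EV, Short and Long and between 22.1 and 26.6 FPKM in the other 6 libraries. PSMA3, of the alpha ring, was at 114, 115 and 113 FPKM in replicate 3 and between 70.3 and 90.5 FPKM elsewhere. Averaged over the groups, replicate 3 exceeded the mean of replicates 1 and 2 by 0.50 for PSMC6, 0.48 for PSMA3 and 0.46 for PSMD12 on the log2 scale, and the members ranged from -0.08 for PSMD8 to 0.50.

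Both patterns went with the GC content of the transcripts. Over the 30 members Spearman's rho with GC content was 0.71 for the fold change in Short, 0.73 for that in Long and -0.65 for the difference of replicate 3 from the other replicates. Over the 13398 genes with an annotated transcript it was 0.62, 0.52 and -0.54. The 5 members that rose in Long had 47.5% to 54.5% GC and PSMC6 had 38.8%. All 3 libraries of replicate 3 lay above the other 6 in 4 of the 9 members under 40% GC. This held for 0 of the 9 at 50% or more and for 13.1% of all genes tested, of any GC content. The share of all genes within these GC classes was not taken. By the weaker rule of highest in replicate 3 within each group, PSMB6, PSMC4 and PSMD6, at 54.5%, 52.9% and 38.6% GC, were added. The share of all genes under this weaker rule was not taken. With each library corrected for GC content, the limma log2 fold change in Long was 0.14 for PSMC4, 0.13 for PSMD3 and -0.10 for PSMC6 (adjusted p of 0.106, 0.0957 and 0.365), and 18 of 30 members were higher and 0 lower at an unadjusted p under 0.05, where 11.1% of all genes were higher and 8.41% lower. The median of the members was 0.12 with this correction, as without it, beside 0.02 and 0.04 over all genes tested. With the correction 28 of 30 members were positive. Without it 24 of 30 were, as were 60.7% of all genes tested, and that share was not taken after the correction. PSMD14, of the lowest GC content, went from -0.01 to 0.36 under it (limma adjusted p of 0.0539). The part of GC content or of library preparation in these differences was not tested further.

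Most pairs of members had a positive correlation across the libraries. With group and passage means removed, Pearson's r over the 9 libraries had a median of 0.41 over the 435 pairs of members, beside 0.12 over pairs of all 7510 genes at a mean FPKM of 10 or more. It was 0.52 within the 20S and 0.29 within the 19S genes, and 0.62 within the CCT chaperonin and 0.12 within the COP9 signalosome. Over all pairs of members the quartiles were 0.01 and 0.66, and 75.6% of pairs were positive, beside 57.6% of pairs of all genes. Removing group and passage means leaves few free values for each r. The pairs share libraries and base composition, so these are descriptions. With only group means removed the median was 0.33 over members and 0.06 over all genes, and the order of the particles turned, with 0.31 within the 20S and 0.37 within the 19S genes.

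With group means removed and the passage shift left in, pairs of members ranged from close agreement to opposite movement. The most alike pairs were PSMA4 and PSMD1 (r of 0.99), PSMA1 and PSMD6 (0.98), PSMB6 and PSMD12 (0.98) and PSMA3 and PSMC6 (0.98). The least alike were PSMA7 and PSMC6 (-0.87), PSMD13 and PSMD14 (-0.82) and PSMA3 and PSMD2 (-0.81). PSMD12 had the highest median r with the other members, 0.65, while PSMD2 had the lowest, at -0.46. A median under 0 was found for 8 genes in all, several of them near 0, such as PSMC3 at -0.03 and PSMD13 at -0.08, and these 8 were not all alike (PSMD4 and PSMD8 had an r of -0.09). The median r was 0.63 over the 36 pairs of members under 40% GC, 0.16 over the 36 pairs at 50% or more and 0.01 over the 81 pairs across these classes. With passage means also removed these values were 0.48, 0.47 and 0.20, and with the GC correction and only group means removed they were 0.31, 0.74 and -0.20, so the order of the GC classes depended on the treatment of the values.

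The promoters of 26 of the 31 genes had an entry among RefSeq promoters (GRCh38.p14, 250 bases before to 50 after the start site). The core of the antioxidant response element, TGACNNNGC on either strand, was present in 7 of these 26 genes, PSMA4, PSMB3, PSMC4, PSMC5, PSMD1, PSMD3 and PSMD12, and in 16.1% of the 27305 genes with an entry. The ETS factor motif CCGGAAG was present in 10 of 26 (12.2% of all genes), CCAAT in 15 (39.7%) and TATAAA in 4 (13.99%). Of the 5 genes higher in Long, PSMC4, PSMC5 and PSMD3 held the TGACNNNGC motif, but so did PSMD12, whose log2 fold change in Long was -0.12 ± 0.07. PSMB6 and PSMD2 were found with none of these motifs. Whether they were among the genes with a promoter entry is not given here, so a lack of the motif cannot be read from this. A match describes letters and not a bound site.

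Stretches of 60 bases before the start site are shown, for a member higher in Long (PSMD3, chr17:39980745-39980804, plus strand), for a member with the same motif and no call (PSMD12, chr17:67366708-67366767, minus strand) and for the member lower in Long (PSMC6, chr14:52707068-52707127, plus strand). Each runs 5′ to 3′ on the strand of the gene. Capitals mark TGACNNNGC in PSMD3 and PSMD12, which begins 37 and 165 bases before the start site, and CCGGAAG in PSMC6, which begins 107 bases before it.
PSMD3: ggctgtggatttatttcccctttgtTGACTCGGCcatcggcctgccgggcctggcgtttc
PSMD12: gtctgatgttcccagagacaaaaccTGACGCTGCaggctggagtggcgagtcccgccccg
PSMC6: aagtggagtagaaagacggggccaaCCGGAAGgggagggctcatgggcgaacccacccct

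Of 5 inducible and tissue-specific subunits, 4 were at or near 0 and PSMB10, an inducible catalytic subunit, was expressed at a low level. PSMB8 and PSMB9 of the immunoproteasome were listed at 0 in all 9 libraries, and the thymic PSMB11 and testis PSMA8 in 8 of 9. PSMB10 was at 3.36 to 5.58 FPKM, and its log2 fold change in Long was 0.18 ± 0.09 (limma adjusted p of 0.259). The constitutive catalytic genes, at 115 to 153 FPKM over the 9 libraries, were above them in every library.

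The activators and the inhibitor of the 20S barrel were all expressed, and 0 of 5 passed in Long or in Short. Over all genes tested, 1.99% were called higher and 6.33% lower in Long, and 0.0362% passed in Short. These shares also stand beside the counts of the lists that follow. PSMF1, an inhibitor, was the highest at a mean of 90.6 FPKM. PSME3, the nuclear activator, had the smallest p in Long, with a log2 fold change of 0.17 ± 0.05 (limma adjusted p of 0.0825).

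Of the 9 assembly chaperones 0 passed in either comparison. PSMG1, which helps build the alpha ring, was the highest at 69.5 FPKM, and PSMD9, a chaperone of the base, had the smallest p in Long (0.25 ± 0.08 on the log2 scale, limma adjusted p of 0.0848).

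Of 7 further cap subunits and bound factors, 1 fell in Long. UCHL5, a deubiquitinase held by the receptor ADRM1, was at 34.8, 34.2 and 49.2 FPKM in EV and at 21.9, 26.0 and 40.8 FPKM in Long, lower within each replicate. Its log2 fold change was -0.43 ± 0.07 (limma adjusted p of 0.00978), and after the GC correction it was -0.10 (limma adjusted p of 0.413). SEM1, a small lid subunit, was the highest of this list at 225 FPKM.

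Of the 10 shuttle factors and ubiquitin genes 1 rose in Long. UBB, a polyubiquitin gene and the highest of the list at a mean of 1069 FPKM, was at 1003, 1006 and 963 FPKM in EV and at 1120, 1147 and 1067 FPKM in Long. Its log2 fold change was 0.17 ± 0.03 (limma adjusted p of 0.0195), and no library of Long overlapped EV.

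Among 7 genes of the pathway that controls proteasome transcription, 1 rose in Long. VCP, the segregase that draws NFE2L1 out of the endoplasmic reticulum, was at 163, 145 and 147 FPKM in EV and at 176, 175 and 170 FPKM in Long, with a log2 fold change of 0.20 ± 0.05 (limma adjusted p of 0.0302). NFE2L1 itself differed by 0.06 ± 0.06 on the log2 scale (limma adjusted p of 0.582), at 52.6 ± 6.40 FPKM in EV and 54.7 ± 5.20 FPKM in Long. NFE2L2 had the lowest log2 fold change of the list in Long, -0.35, and was not called. It was at 20.4, 21.2 and 23.1 FPKM in EV and at 13.3, 15.9 and 22.1 FPKM in Long. Of the 7 genes, 4 had a positive and 3 a negative value in Long. In the complexes set beside the proteasome, 0 of 8 CCT genes passed in Long, with CCT5 the highest at 471 FPKM and the smallest p (0.14 ± 0.04, limma adjusted p of 0.0848), and 1 of 9 COP9 genes fell, COPS2 (-0.67 ± 0.14, limma adjusted p of 0.0190), while COPS6 was the highest at 121 FPKM. None of these lists had a gene past the threshold in Short, and the calls of UCHL5, UBB, VCP and COPS2 in Long did not hold without the replicate block (limma adjusted p of 0.637 to 0.670).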

How the data were processed

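Libraries were made by the authors with a stranded mRNA kit. The authors mapped reads first to Ensembl transcripts and the rest to the hg19 genome by TopHat (version 1.4.1) and deposited FPKM values for each gene in 1 table, a column for each library, and Cufflinks is named in the submitters' processing notes. The Ensembl release and the counting of strand are not given in the sources used here. Gene names were taken from GENCODE on GRCh37, which matched 47578 identifiers (87.2%).

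Linear models were fitted to log2(FPKM + 1) of the 13801 genes whose mean reached 1 FPKM, using limma (version 3.58.1; R version 4.3.3) with an intensity trend. Their terms were group and, as a block, replicate number. Benjamini-Hochberg adjustment was made over all genes tested, with a threshold of 0.05. The block follows the methods, which repeated transfections in different cell passages, and assumes that libraries of the same number share a passage. Deviations from the group means correlated at 0.55 on average over 9 same-numbered pairs of libraries (0.327 to 0.813) and at -0.26 over 18 others (-0.634 to 0.366). Of the others, the 6 pairs of replicates 1 and 2 were at 0.181 to 0.366 and all pairs with replicate 3 were negative, so the contrast came mostly from replicate 3. Deviations from a group mean cancel within the group, so a positive average over same-numbered pairs brings a negative one over the others. The average of -0.26 is therefore no separate support for the pairing. Passages of a single cell line are not independent donors. With the block, the p-values rest on the spread of these libraries left after group and replicate means, moderated over genes by limma. Exact permutation tests on single genes cannot go below 0.1 with 3 libraries against 3 or 0.25 with 3 pairs.

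The members and lists were chosen with earlier results of these data known. Fold changes are given for members past the threshold in each comparison, or else the 3 with the smallest p, and always for PSMB5, PSMB6, PSMB7 and PSMD14. Other lists are given by counts, with the gene of highest mean and that of smallest p in Long against EV. NFE2L1 and NFE2L2 are given besides. Alternatives were a pseudocount of 0.1, TPM and median-ratio scaling, no replicate block, other samples, no trend, other filters, a replicate left out, and loess corrections (span 0.3) for GC content and length with the block kept.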

Additional observations from a re-analysis of the deposited data

How the results depend on the processing

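The count of 6 members past the threshold in Long against EV depended on the processing. It was 0 without the replicate block, with Long and EV alone in the fit, without an intensity trend, without a filter on low values and with the GC correction and the block, 1 with TPM and 2 with the median ratio. Leaving out a passage gave 0 to 2, with 0 without replicate 1 or replicate 2 and 2 without replicate 3. It was 8 with a minimum of 5 FPKM, 4 with the length correction and 6 with a pseudocount of 0.1. The cause was not tested. Without the replicate block the smallest adjusted p in limma was 0.637 over the members in Long, 0.713 in Short and 1.000 in Long against Short, and the calls of UCHL5, UBB, VCP and COPS2 were lost too. Calls over all genes in Long against EV were 275 higher and 873 lower, 57 and 1222 with TPM, and 135 and 1105 with the median ratio. The members' median log2 fold change was 0.0206 in Short and 0.0424 in Long with TPM.

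PSMD14 turned from negative to positive in Short (0.18) and in Long (0.36) with the GC correction, and, over the fits without a passage, ranged from -0.146 to 0.0499 in Short, -0.0428 to 0.0398 in Long and -0.0101 to 0.105 in Long against Short, while PSMB5 ranged from -0.109 to 0.00115 in Long against Short. PSMD14 passed the threshold in none of these fits. Among the fold changes of named members, 222 values kept direction and side of the threshold, 57 kept direction and lost the call, and 1 gained it (PSMB7 with a minimum of 5 FPKM, limma adjusted p of 0.0410). The median pairwise r of members was 0.409, and 0.314 to 0.690 without a passage, highest without replicate 2. The log2 ratio of 20S to 19S levels was 0.80 without members that share exons or have a processed pseudogene. Without counts, no interval for counting error could be given.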
